A study of Mus musculus with 7 samples.

Results

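A set of 10 mouse genes were followed whose human counterparts lie at loci associated with risk of late-onset Alzheimer's disease: Bin1, Picalm, Sorl1, Inpp5d, Plcg2, Abca7, Cd33, Cd2ap, Ptk2b and Mef2c. They were taken by symbol from the 32285 genes of the deposited matrices, and all 10 were found, each as 1 gene. Their levels were described in each type of nucleus and compared between mice given an AAV vector for ANGPT2 and mice given a control AAV. ANGPT2 (angiopoietin-2) is released by endothelial cells and binds their receptor TIE2.

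The 7 libraries of single-nucleus RNA came from 5xFAD +/- mice aged 6 months, so every group carried the 5xFAD transgenes. These transgenes are expressed from a Thy1 promoter, which is active mainly in neurons, and the mice form amyloid plaques. The vectors were injected behind the eye at 4 months. Control AAV was given to 3 samples (a male and a female of batch 1 and a male of batch 2), and ANGPT2 AAV to 4 (a male and a female of each batch). The labelled tissue was subcortex, thalamus and hippocampus. The labels list the samples separately and do not say how many mice gave each, so the p-values measure the spread between these samples.

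The genes belong to a few cellular systems. In microglia, the macrophages of the brain, receptors such as TREM2 signal through phospholipase C gamma 2 (Plcg2), while the phosphatase SHIP1 (Inpp5d) removes a phosphate from a signalling membrane lipid and the sialic acid receptor Cd33 can restrain activation. Another group shapes membranes and sorts cargo: Picalm assembles clathrin coats, Bin1 bends membranes, Cd2ap links receptors to actin, and Sorl1 carries the amyloid precursor protein away from endosomes. The remaining genes encode a calcium-responsive tyrosine kinase (Ptk2b, also called Pyk2), a lipid transporter (Abca7) and a transcription factor of neurons and microglia (Mef2c).

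The matrices held 58286 barcodes, of which 54230 were kept after filters and removal of 3939 called doublets. Total UMIs per library ranged from 25466033 to 100529717, and median UMIs per barcode from 2262 to 8278, with all 3 libraries of batch 2 at or under 3407. Library pairs shared 63 to 137 barcode sequences. Clusters were built without the 10 genes and named from fixed markers, which gave 15 classes. Every class had its first-listed marker highest in itself (Cx3cr1 in microglia at 579 against at most 20.7 elsewhere in counts-per-million units, CPM), though other excitatory neurons were highest in only 4 of their 9 markers, and 9.12% to 31.3% of nuclei per library stayed unnamed. Medium spiny neurons of the striatum, not named by the label apart from the subcortex, made up 0.0953% to 18.9% of control and 2.92% to 30.7% of ANGPT2 nuclei. Thalamic neurons made up 2.54% to 6.36% and 0.385% to 8.56%. Both varied widely within each group. Other excitatory neurons made up 21.2% to 31.3% and 14.5% to 27.3%. Their clusters included some with Rorb, Cux2 or Foxp2 among the leading genes, and the brain regions of these nuclei were not assigned. Mouse Angpt2 itself stood at 3.73 to 4.33 CPM in control and 2.24 to 4.82 in ANGPT2 whole libraries. The labels do not give the species of the ANGPT2 sequence in the vector, so this overlap does not check the group labels.

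The control female library of batch 1 stood apart in dentate granule neurons, the principal cells of the dentate gyrus. Of its 681 granule nuclei, 678 formed a cluster of their own. Bdnf, which encodes a neurotrophin, stood at 1156 CPM there against 42.6 to 93.4 in the other 6 libraries, and the calcium-binding protein gene Calb1 at 6.43 against 117 to 171. Among the members, Ptk2b was at 329.7 against 505 to 589 and Plcg2 at 2.25 against 23.5 to 38.1, whereas Sorl1, at 303, lay within the range of the others (281 to 322). Values without this library are given beside the results below that it moved most.

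Levels in CPM, the UMIs of the gene relative to all UMIs of the class in a library, are given as mean ± SD over libraries of equal weight. They compare 1 gene between classes and never 2 genes with each other, since capture and length differ between genes. Because UMIs are summed over nuclei, in whole libraries fewer nuclei of a type and less RNA per nucleus cannot be told apart. Microglia had the highest mean of 5 members (Inpp5d, Cd33, Plcg2, Mef2c and Picalm), endothelial nuclei of Cd2ap, oligodendrocytes of Bin1, dentate granule neurons of Sorl1 and Ptk2b, and thalamic neurons of Abca7.

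**Figure D1:**
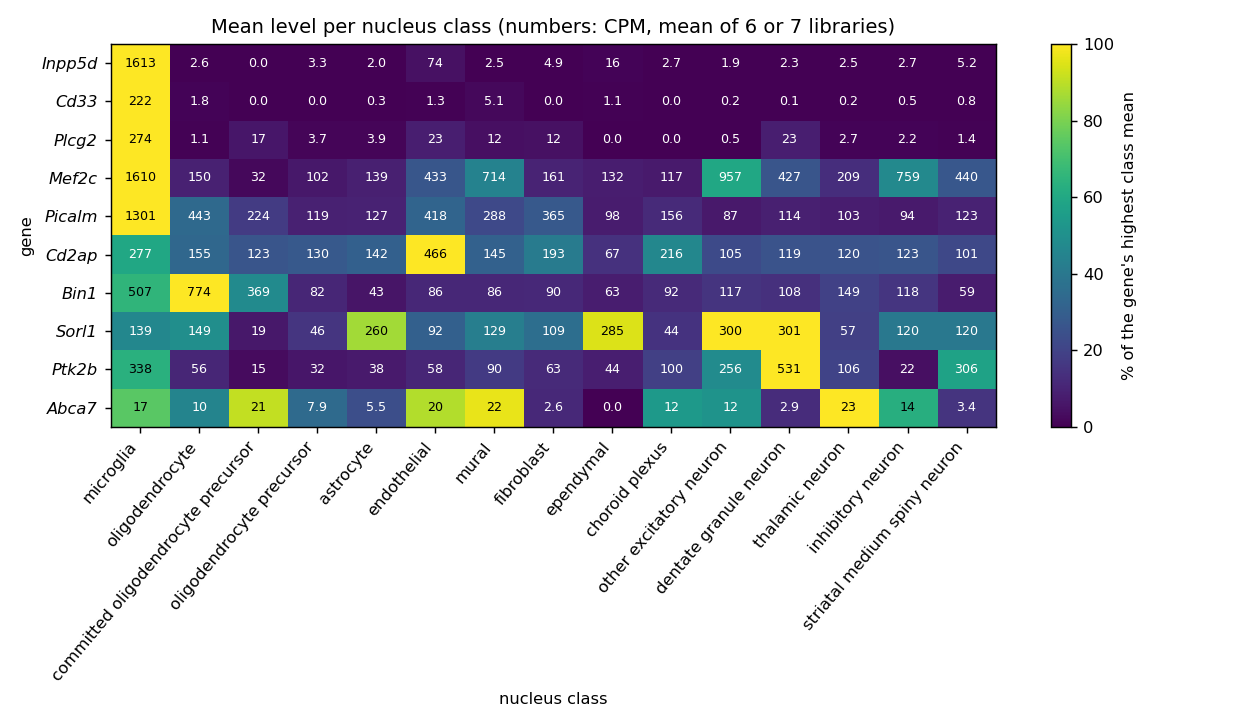
Mean level of each gene (rows) in each nucleus class (columns), printed as CPM over 6 or 7 libraries. Colour gives the level as a percentage of that gene's own highest class, and the microglia column is brightest for 5 of the 10 genes.

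Inpp5d was high in microglia and low elsewhere. It lies on chromosome 1 (GRCm38, GENCODE M21, 87620312 to 87720507, forward strand). Its microglial level was 1613 ± 124 CPM (SD, n = 7), with a range of 1377 to 1749, and the next class, endothelial nuclei, had 73.7 ± 27.6 (n = 7). The 7 libraries did not overlap between these classes. Ependymal nuclei followed at 16.5 ± 21.4, and the other 12 classes had means of at most 5.21. Microglia supplied 71.9% to 94.0% of all Inpp5d UMIs of a library, and nuclei left unnamed 0.608% to 21.3%. Clusters without a name included some led by genes that microglia express, such as Tgfbr1.

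Cd33 (chromosome 7, 43524216 to 43544428, reverse strand) was nearly restricted to microglia, at 222 ± 40.9 CPM (SD, n = 7). Mural nuclei, from pericytes and smooth muscle cells of vessels, came next at 5.06 ± 13.4, which rested on 2 UMIs of the control female library. The remaining 13 classes had at most 1.84, and 4 of them had no UMI. Microglia gave 66.7% to 95.7% of its UMIs.

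Plcg2 (chromosome 8, 117498291 to 117635142, forward strand) had 274 ± 18.5 CPM in microglia (SD, n = 7). Dentate granule neurons were second at 23.4 ± 10.6, or 26.9 ± 5.55 without the control female (n = 6), close to endothelial nuclei at 22.7 ± 14.8. Other excitatory neurons had 0.488 ± 0.292, and the granule level was above theirs in 7 of 7 libraries. Unlike Inpp5d and Cd33, only 41.1% to 72.9% of Plcg2 UMIs came from microglia, and granule neurons gave 2.89% to 24.7%.

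Mef2c was high in several classes. The gene spans chromosome 13, 83504034 to 83667080 on the forward strand. Microglia had 1609.7 ± 193 CPM (SD, n = 7), above other excitatory neurons (957 ± 127) in all 7 libraries and without overlap. Inhibitory neurons (759 ± 27.7) and mural nuclei (714 ± 161) followed and overlapped each other. A lower tier held medium spiny neurons (439.7 ± 67.1, n = 6), endothelial nuclei (433 ± 80.9) and dentate granule neurons (427 ± 36.3), whose ranges also overlapped. Thalamic neurons had 209 ± 57.3, which was under granule neurons in all 7 libraries. Since other excitatory neurons were the most numerous neurons, they gave 54.4% to 70.0% of Mef2c UMIs and microglia 2.49% to 4.98%.

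Among the trafficking genes, Picalm (chromosome 7, 90130213 to 90213465, forward strand) was present in every class. Its microglial level of 1301 ± 241 CPM (SD, n = 7) exceeded oligodendrocytes (443 ± 44.4) in 7 of 7 libraries. Oligodendrocytes, endothelial nuclei (418 ± 107) and fibroblasts (365 ± 78.9) overlapped, and neurons lay at the low end with 87.4 ± 5.05 in other excitatory and 94.4 ± 10.2 in inhibitory neurons.

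Cd2ap (chromosome 17, 42792951 to 42876665, reverse strand) was the one member highest in endothelial nuclei, at 466 ± 64.9 CPM (SD, n = 7, 406 UMIs in all). The level was above microglia (277 ± 53.0) in 7 of 7 libraries without overlap. Choroid plexus (216 ± 68.6, n = 6) overlapped microglia, and the lowest class was ependymal at 66.8 ± 24.5.

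Bin1 (chromosome 18, 32377230 to 32435737, forward strand) led in oligodendrocytes, the myelin-forming cells, at 774 ± 69.9 CPM (SD, n = 7). Microglia followed with 507 ± 52.8 and did not overlap them. Committed oligodendrocyte precursors, the intermediate stage, had 369 ± 134 (n = 6) and overlapped microglia, while oligodendrocyte precursors had 81.7 ± 17.9 and astrocytes, the lowest class, 42.9 ± 7.13. An antisense gene, A830052D11Rik, overlaps Bin1, and Gm16214 overlaps Sorl1 in antisense. Whether the counting used strand is not given in the sources used here, so reads of these pairs may not be separable.

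Sorl1 (chromosome 9, 41964720 to 42124297, reverse strand) had 4 leading classes whose ranges overlapped. These were dentate granule neurons (301 ± 16.7 CPM, SD, n = 7), other excitatory neurons (300.3 ± 81.0), ependymal nuclei (285 ± 111) and astrocytes (259.8 ± 44.5). When called doublets were kept, ependymal nuclei had the highest mean. Astrocytes exceeded oligodendrocytes (149 ± 16.0) in 7 of 7 libraries. Thalamic neurons held only 56.6 ± 18.8, so excitatory neurons were not uniform. In other excitatory neurons the control female library had 464 and the other 6 had 223 to 324, and without it their mean was 273 ± 40.8.

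Ptk2b (chromosome 14, 66153257 to 66281052, reverse strand) differed between neuron classes. Dentate granule neurons had 531 ± 93.4 CPM (SD, n = 7), or 565 ± 31.4 without the control female (n = 6). Microglia (338 ± 52.1), medium spiny neurons (306 ± 30.6, n = 6) and other excitatory neurons (256 ± 29.9) followed with overlapping ranges. Inhibitory neurons had 21.7 ± 7.54, the second lowest mean of the 15 classes. In microglia the control female was the highest library at 423, so that granule neurons exceeded microglia in 6 of 7 libraries.

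Abca7 (chromosome 10, 79996494 to 80015572, forward strand) gave few UMIs. Thalamic neurons had the highest mean, 22.8 ± 3.93 CPM (SD, n = 7, 947 UMIs), but without the control female mural nuclei came first (25.7) and thalamic neurons second (22.6). Mural nuclei (22 ± 21.3), committed precursors (20.7 ± 21.1, n = 6) and endothelial nuclei (20.2 ± 23.7) had similar means that rested on 13, 9 and 15 UMIs. Microglia had 17.0 ± 4.99 from 82 UMIs and overlapped inhibitory neurons (14.3 ± 2.32). Dentate granule neurons had 2.92 ± 2.22, and no UMI was seen in ependymal nuclei.

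The promoters of the members were searched for 1 motif. Windows are printed only for members highest in microglia that held a match, so the printed ones were picked by it. PU.1 is a transcription factor of myeloid cells, and its core sequence GAGGAA was searched on both strands (TTCCTC for the other strand) in the 250 bases before each start of the RefSeq promoter table (GRCm38.p6). No other motif was searched. The table matched 8 of the 10 members, with 11 windows. At least 1 match was found in 5 of the 11 windows, against 23.3% of all 32851 windows of this length. By member it was 4 of 8, which has no such share beside it, since a member can hold several windows. Those 4 members were Inpp5d, Cd33, Picalm and Mef2c, all highest in microglia. Plcg2, also highest in microglia, had no match in its window, and neither had Sorl1, Abca7 or Cd2ap. Bin1 and Ptk2b were not in the table. In the following sequences, written 5′ to 3′ on the gene's strand, capitals mark the match and the start lies just after the last base. The Inpp5d window is chr1:87620062-87620311 (forward), with the match 20 bases before the start. The Cd33 window is chr7:43533172-43533421 (reverse), with the match at 226 bases, and it lies within the longer Cd33 gene of GENCODE. The Picalm window is chr7:90129963-90130212 (forward), with matches at 57 and 31 bases. Mef2c is shown by the first of its 3 windows, chr13:83503784-83504033 (forward), with the match at 122 bases. The last of the 3 held no match.
Inpp5d: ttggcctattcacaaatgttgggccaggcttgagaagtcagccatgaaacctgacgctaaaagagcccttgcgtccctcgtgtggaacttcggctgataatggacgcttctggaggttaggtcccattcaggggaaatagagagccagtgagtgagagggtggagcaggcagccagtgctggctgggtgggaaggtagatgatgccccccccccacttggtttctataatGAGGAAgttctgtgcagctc
Cd33: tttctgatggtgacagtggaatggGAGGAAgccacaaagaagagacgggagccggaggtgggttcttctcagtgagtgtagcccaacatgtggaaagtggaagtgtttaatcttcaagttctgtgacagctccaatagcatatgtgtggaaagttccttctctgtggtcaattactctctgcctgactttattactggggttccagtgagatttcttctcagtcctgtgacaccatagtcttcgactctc
Picalm: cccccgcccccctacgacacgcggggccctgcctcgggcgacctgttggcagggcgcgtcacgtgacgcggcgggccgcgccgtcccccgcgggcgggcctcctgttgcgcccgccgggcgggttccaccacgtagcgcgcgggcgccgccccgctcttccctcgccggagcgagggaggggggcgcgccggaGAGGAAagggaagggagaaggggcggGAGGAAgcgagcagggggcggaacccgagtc
Mef2c: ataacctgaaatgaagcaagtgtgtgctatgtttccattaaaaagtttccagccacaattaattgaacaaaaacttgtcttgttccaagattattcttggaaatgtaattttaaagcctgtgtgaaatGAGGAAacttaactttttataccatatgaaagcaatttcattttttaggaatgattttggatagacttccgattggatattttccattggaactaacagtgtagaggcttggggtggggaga
A match is a description of letters and does not show binding of PU.1 in these nuclei.

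Likeness over classes was described with Pearson's r of mean log2(CPM + 1) over the 15 classes, among 15117 genes with at least 10 CPM in 1 class. All points of a gene share the same libraries, so no p is given. Closest to Inpp5d were the leukocyte phosphatase gene Ptprc (0.966) and the myeloid BAR domain gene Bin2 (0.962), followed by Gmfg (0.954). For Cd33 they were Cd37 (0.974), the cytokine gene Il1a (0.973) and Was (0.970), whose product regulates actin in blood cells. Bin1 was followed most closely by the sorting nexin gene Snx30 (0.91), which was highest in committed precursors, and then by Slc15a4 (0.863) and Iars (0.852). The 3 genes nearest Cd2ap were Atox1 (0.951), Ngdn (0.941) and Cmtm6 (0.939), and those nearest Picalm were Slc25a45 (0.949), Gxylt1 (0.933) and Sft2d1 (0.933). Sorl1 had its best matches in B3galt2 (0.842), Celsr2 (0.812) and Lix1 (0.80). Ptk2b paired with Nptn (0.866), Celf1 (0.863), itself an Alzheimer risk gene, and Lyst (0.859). Mef2c paired with Ndfip2 (0.903), Eepd1 (0.899) and Atp6v0a1 (0.877). Plcg2 was nearest to Imp4 (0.845), Nfam1 (0.844) and Mak16 (0.834), and Abca7 to Fzr1 (0.871), Map3k10 (0.823) and Rbm45 (0.811). Between members, the highest correlation was that of Inpp5d with Cd33 (0.85) and the lowest that of Sorl1 with Abca7 (-0.51).

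Microglia of plaque-bearing mice include homeostatic cells and cells in the disease-associated state, which form around plaques. The 2720 microglia were clustered again without the 10 genes, and sub-clusters were named from fixed state markers. Among these naming markers, the integrin gene Itgax averaged 9.02 CPM in homeostatic-like and 94.6 in disease-associated-like microglia. The purinergic receptor gene P2ry12, another of them, averaged 965 and 559. Median UMIs per nucleus were 878 and 2342 in the homeostatic-like sub-clusters and 921.5 and 2446 in the disease-associated-like ones. Disease-associated-like nuclei made up 37.2%, 48.7% and 47.9% of the nuclei given a state in the controls (male and female of batch 1, male of batch 2), and 35.0%, 33.8%, 30.1% and 49.1% in the ANGPT2 libraries (male and female of batch 1, male and female of batch 2). Sub-clusters of 53 nuclei led by T cell genes such as Skap1 and of 35 nuclei led by border macrophage genes such as Mrc1 had no state name.

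Cd33 was lower in the disease-associated-like state in 7 of 7 libraries, with 139 ± 34.9 CPM against 291 ± 48.7 in the homeostatic-like state (SD, n = 7), a mean log2 difference of -1.03 ± 0.16. Bin1 was lower in 7 of 7 as well (380.4 ± 42.4 against 614 ± 61.0, log2 difference -0.68 ± 0.20), as was Plcg2 (219 ± 31.7 against 324 ± 36.9, -0.55 ± 0.25). Inpp5d (-0.24 ± 0.09) and Cd2ap (-0.21 ± 0.17) were also lower in all 7 libraries by smaller amounts. Mef2c was the one member higher in the disease-associated-like state in 7 of 7 libraries, at 1771 ± 277 against 1525 ± 167 CPM (0.21 ± 0.16). Ptk2b was higher in 5 of 7 (0.17 ± 0.29), and Picalm (-0.03 ± 0.15) and Sorl1 (-0.10 ± 0.17) differed by less than their spread between libraries. Abca7 (0.12 ± 0.74) rested on 37 and 43 UMIs and its order was not detectable at this depth. States were clustered on other genes of the same nuclei, so these values are a description without a test. The homeostatic markers Cx3cr1 and Tmem119 differed by -0.60 ± 0.18 and -1.71 ± 0.83, and both were lower in 7 of 7 libraries. Both were among the markers that named the states, so their direction followed from the naming. Of transcripts typical of other cells, Mbp (oligodendrocytes) was lower in 6 of 7 libraries (-0.11 ± 0.10) and Slc1a2 (astrocytes) in 5 of 7 (-0.13 ± 0.14), and their part in the smaller differences was not tested.

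**Figure D2:**
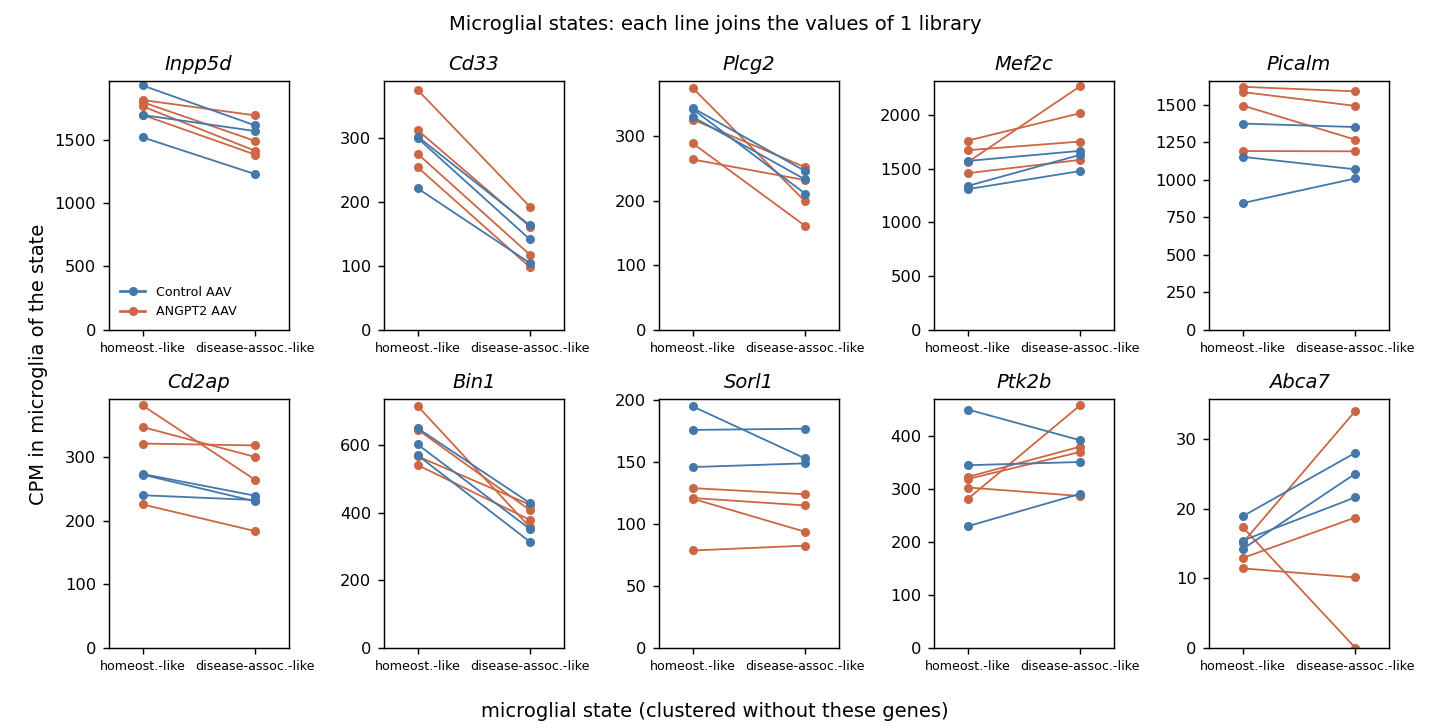
Level (CPM, from 0) of each gene in homeostatic-like and disease-associated-like microglia, with 1 line per library coloured by treatment. The lines of Cd33, Bin1, Plcg2, Inpp5d and Cd2ap descend in 7 of 7 libraries and those of Mef2c ascend in 7 of 7.

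The treatment comparison asked whether ANGPT2 AAV changed the members. None was called, in whole libraries or in any class. In whole libraries, edgeR's quasi-likelihood test with Benjamini-Hochberg adjustment over 19992 genes called 0 of 10 members, and 0.0% of all genes. Of the members, only Mef2c had an unadjusted p under 0.05, as did 553 genes. DESeq2 called 1 of 27828 genes, which was no member. By class, 77 of the 130 possible pairs of a member and 1 of 13 classes passed the filter on low counts (dentate granule and thalamic neurons were merged into excitatory neurons here). Of these 77, edgeR called 0, against 0.0% of 97969 gene and class pairs, and 6 had an unadjusted p under 0.05, as did 3552 of the 97969 pairs. The fitted value was higher in ANGPT2 for 49 pairs and lower for 28. Classes share the same libraries, so directions counted over classes, here and below, are not independent. DESeq2 called 0 of the 122 pairs it tested. Log2 changes below are those of edgeR, ANGPT2 over control, with their SE.

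Without a test, the groups can be read by whether they overlap. In whole libraries 1 of 10 members (Mef2c, higher in ANGPT2) had groups that did not overlap, against 3.98% of all genes. Of those genes 161 were higher and 634 lower in ANGPT2. In classes, 3 of 77 pairs did not overlap, against 5.96% of all pairs, so the members' share lay near that of other genes. These were Sorl1 in microglia (lower), Picalm in committed precursors (higher) and Ptk2b in medium spiny neurons (lower). Of all genes, 5.31% did not overlap in microglia (148 higher and 335 lower). The share was 10.7% in committed precursors (124 and 185) and 10.2% in medium spiny neurons (247 and 1038). In excitatory neurons it was 0 of 9 members and 4.62% of genes.

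**Figure D3:**
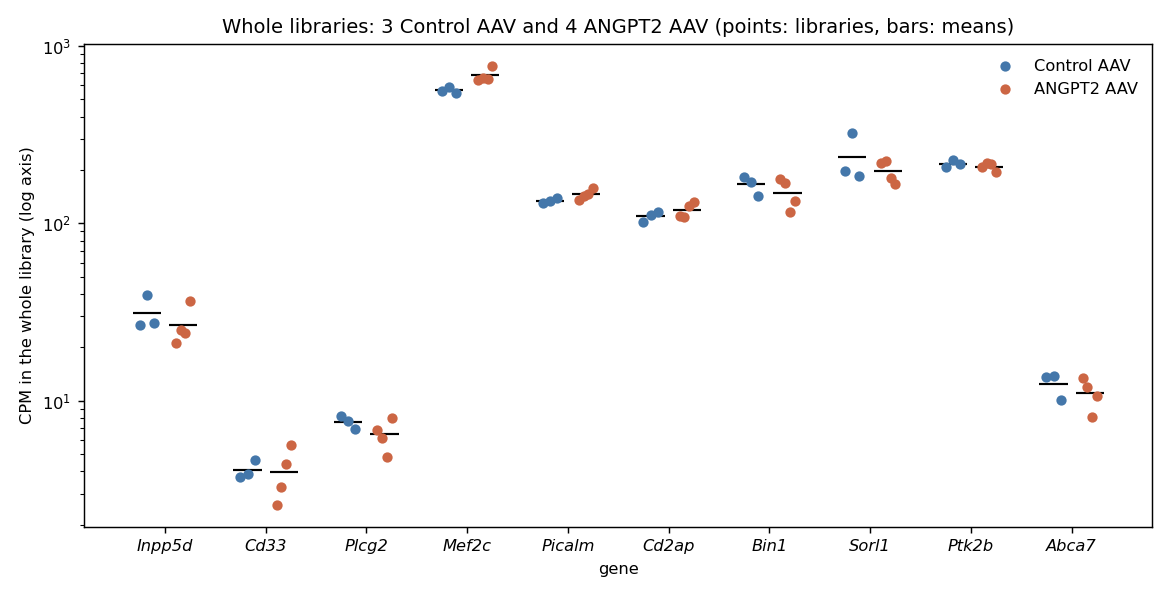
Level in whole libraries (CPM, log axis) of each gene, with 1 point per library (3 Control AAV, 4 ANGPT2 AAV) and a bar at each group's mean. The groups overlap for all genes but Mef2c, whose controls lie at 546 to 586 and ANGPT2 libraries at 643 to 772.

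Mef2c had whole-library levels of 558, 586 and 546 CPM in the controls (male and female of batch 1, male of batch 2). The ANGPT2 libraries had 643 and 664 (male and female of batch 1) and 655 and 772 (male and female of batch 2). All 4 lay above the controls, and the log2 change was 0.36 ± 0.14 (adjusted p = 0.998, edgeR), with 0.19 within batch 1 and 0.38 within batch 2 from mean levels. With the batch as a replicate block it was 0.34 ± 0.15. The member was higher in 11 of the 12 classes tested.

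By class, Mef2c in excitatory neurons read 653, 638 and 817 CPM in the controls and 734, 828, 1028 and 952 in the ANGPT2 libraries, in the same order of samples. These groups overlapped through the control male of batch 2. Within batches the mean levels in plain CPM differed in the same direction (0.27 and 0.28). The fitted change, with TMM scaling and no batch term, was 0.45 ± 0.19 (adjusted p = 0.90, edgeR), larger than both. In this class the median of all genes was -0.09 with plain CPM and -0.02 with TMM. With single libraries left out the fitted change ranged from 0.33 to 0.55. Fitted alone it was 0.41 ± 0.16 in other excitatory, 0.32 ± 0.25 in thalamic (0.19 ± 0.28 without the control female) and 0.20 ± 0.16 in dentate granule neurons. In microglia the controls had 1574, 1354 and 1487 and the ANGPT2 libraries 1704, 1467, 1791 and 1892, a change of 0.26 ± 0.17 (adjusted p = 0.999). Among glia, 2 classes, chosen after their values were seen, had an unadjusted p under 0.05. In astrocytes the controls lay at 110.1 to 136 and the ANGPT2 libraries at 135 to 171 (0.38 ± 0.15, adjusted p = 0.993). In oligodendrocyte precursors they lay at 61.9 to 112 and 92.5 to 144 (0.50 ± 0.20, adjusted p = 0.959). Leaving out the batch 1 control male gave 0.82 ± 0.24 for this last change, and leaving out the control female 0.30 ± 0.21. In inhibitory neurons, where Mef2c is also high, the change was 0.04 ± 0.12. Summed markers of excitatory neurons in astrocytes ranged from 343 to 521 CPM in controls and 271 to 569 in ANGPT2 libraries (5 of 9 markers higher in ANGPT2), and in oligodendrocyte precursors from 247 to 397 and 208 to 452 (3 of 9). Their part in the glial values of Mef2c was not tested.

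Inpp5d in microglia had 1589, 1712 and 1377 CPM in the controls and 1672, 1553, 1643 and 1749 in the ANGPT2 libraries, which overlapped (0.12 ± 0.17, adjusted p = 0.999, edgeR). In whole libraries it averaged 31.3 ± 7.04 and 26.6 ± 6.73 CPM (SD, n = 3 and 4), a change of -0.16 ± 0.25 that became 0.12 without the control female. Microglia were 4.44% to 6.08% of control and 3.50% to 7.76% of ANGPT2 nuclei. Endothelial nuclei, its second class, gave 60 UMIs in all and did not pass the filter.

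Cd33 read 223, 154 and 233 CPM in control and 213, 192, 259 and 277 in ANGPT2 microglia, in the same order. The lowest library was the control female and the groups overlapped (0.25 ± 0.19, adjusted p = 0.999, edgeR). The change was 0.10 ± 0.20 without that library and 0.13 ± 0.19 without the ANGPT2 female of batch 2. In whole libraries the change was 0.06 ± 0.30, and its sign depended on the fit: -0.13 with the replicate block and -0.20 without the ANGPT2 female of batch 2.

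Plcg2 in microglia had 278, 284 and 277 CPM in the controls and 298, 248, 251 and 284 in the ANGPT2 libraries, which overlapped. Its change was -0.01 ± 0.15 (adjusted p = 0.999, edgeR). Whole libraries gave -0.16 ± 0.20. In dentate granule neurons alone the fit gave 0.87 ± 0.61, and 0.22 ± 0.22 without the control female. In other excitatory neurons alone it was -1.21 ± 0.42 (adjusted p = 0.825, edgeR), from 95 UMIs.

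Picalm in microglia had 1104, 1341 and 929 CPM in the controls and 1194, 1395, 1612 and 1532 in the ANGPT2 libraries. The groups overlapped in batch 1, where the mean levels differed by 0.09 in log2, and were apart in batch 2, with 0.76. The change was 0.39 ± 0.18 (adjusted p = 0.999, edgeR), and 0.28 ± 0.20 without the control male of batch 2. In oligodendrocytes the controls had 398, 439 and 399 and the ANGPT2 libraries 444, 423, 473 and 524 (0.24 ± 0.16). Whole libraries had 131 to 139 and 135 to 159 (0.20 ± 0.12). Committed precursors, singled out after their values were seen, had 169, 199 and 145 in the controls and 350.2, 248 and 234 in the 3 ANGPT2 libraries with at least 10 such nuclei, which did not overlap (0.74 ± 0.32, adjusted p = 0.867). That class held 17 to 26 nuclei per library used and 179 Picalm UMIs. With clusters drawn at resolution 2 the change in this class was 0.11 ± 0.33, and without the ANGPT2 male of batch 1 it was 0.46 ± 0.40. Summed oligodendrocyte markers there ranged from 6163 to 11938 in controls and 6974 to 15631 CPM in ANGPT2 libraries, with 9 of 11 higher in ANGPT2, and their part was not tested. Picalm was higher in 11 of 13 classes.

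Cd2ap in endothelial nuclei had 517, 399.7 and 479 CPM in the controls and 510, 478, 354 and 525 in the ANGPT2 libraries, which overlapped (0.02 ± 0.27, adjusted p = 1.0, edgeR). This is the class that expresses TIE2. Microglia had 254, 243 and 238 in the controls and 329, 209, 342 and 322 in ANGPT2, so 3 of 4 ANGPT2 libraries were above the controls and the female of batch 1 was below them (0.32 ± 0.18, adjusted p = 0.999). Without that female it was 0.49 ± 0.15. The whole-library change was 0.20 ± 0.14. Cd2ap was higher in 11 of 12 classes.

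Bin1 in oligodendrocytes had 823, 645 and 743 CPM in the controls and 859, 771, 818 and 757 in the ANGPT2 libraries. The control female was lowest, and the groups overlapped (0.18 ± 0.15, adjusted p = 1.0, edgeR). In microglia the change was 0.16 ± 0.16 and in whole libraries -0.08 ± 0.15. Over 10 classes it was higher in 6 and lower in 4, from -0.30 to 0.67.

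Sorl1 in microglia, not among its leading classes and singled out after its values were seen, had 184, 185 and 149 CPM in the controls. The ANGPT2 libraries had 86.8 and 122 (male and female of batch 1) and 118 and 132 (male and female of batch 2), all below the controls. The log2 change was -0.56 ± 0.18 (adjusted p = 0.999, edgeR) from 701 UMIs, so it failed the correction over 9093 genes. Under every alternative tried it lay between -0.67 and -0.43, and the lowest adjusted p was 0.347, with the replicate block and sex together. Within batches the mean levels differed by -0.84 and -0.25. Fitted alone, homeostatic-like microglia gave -0.63 ± 0.21 and disease-associated-like microglia -0.63 ± 0.22. Summed lymphocyte markers in this class ranged from 48.0 to 205 CPM in controls and 11.4 to 62.2 in ANGPT2 libraries, with 13 of 13 detected and 2 of 13 higher in ANGPT2, and oligodendrocyte markers from 1139 to 1467 and 791 to 1409.9 (2 of 11). Excitatory neurons and astrocytes are leading classes of Sorl1. Their summed markers in microglia ranged from 583 to 807 and 479 to 924 CPM for excitatory neurons (2 of 9 higher in ANGPT2). For astrocytes they ranged from 1123 to 3763 and 935 to 4049 (6 of 10). The part of all these markers in the class value was not tested.

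In whole libraries, excitatory neurons and ependymal nuclei, the sign of the Sorl1 value turned on 1 library. Whole libraries read 198, 322 and 186 CPM in the controls and 219.7, 225, 180.4 and 167 in ANGPT2, where the control female was far above the rest. The change was -0.20 ± 0.22 with that library and 0.18 ± 0.12 without it. Excitatory neurons had 226, 384 and 242 in the controls and 256, 275, 244 and 205 in ANGPT2. Their change was -0.15 ± 0.21, and 0.20 ± 0.11 without the control female. In ependymal nuclei it was -0.16 ± 0.29 and 0.12 ± 0.34. Fitted alone, dentate granule neurons gave 0.08 ± 0.15 (0.18 ± 0.15 without the control female), other excitatory neurons -0.20 ± 0.23 (0.21 ± 0.13 without it) and thalamic neurons -0.42 ± 0.19 (-0.31 ± 0.21 without it). The thalamic value had an adjusted p of 1.0 (edgeR) and kept its sign.

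**Figure D4:**
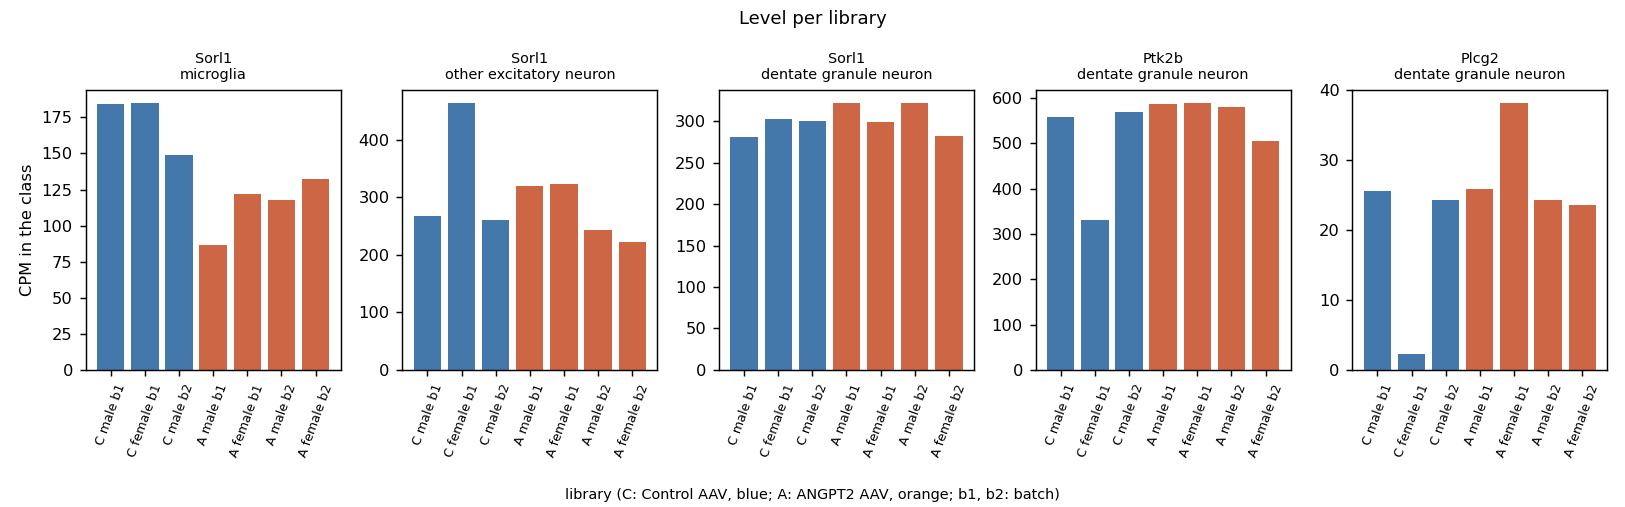
Level per library (CPM, bars from 0, no error bars since each bar is 1 library) of Sorl1 in microglia, other excitatory and dentate granule neurons and of Ptk2b and Plcg2 in dentate granule neurons. In microglia the 4 ANGPT2 bars (86.8 to 132) lie below the 3 controls (149 to 185), while the control female stands out at 464 for Sorl1 in other excitatory neurons and is lowest for Ptk2b and Plcg2 in granule neurons.

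Ptk2b in microglia had 258, 423 and 341 CPM in the controls and 298, 343, 331 and 369.9 in the ANGPT2 libraries, which lay within the range of the controls (0.02 ± 0.18, adjusted p = 0.999, edgeR). With the replicate block the sign turned (-0.01). Medium spiny neurons had 329.5 and 339 in 2 controls (the male of batch 1 had only 8 such nuclei and was left out) and 307, 322, 268 and 269 in ANGPT2. These groups did not overlap, but the change of -0.13 ± 0.15 was smaller than its error. In dentate granule neurons alone it was 0.27 ± 0.17, and 0.10 ± 0.14 without the control female. Oligodendrocyte precursors, chosen after their values were seen, had 23.7, 19.6 and 30 in the controls and 24.8, 49.2, 37.7 and 37.9 in ANGPT2 (0.71 ± 0.30, adjusted p = 0.959) from 125 UMIs.

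Abca7 had a log2 change of -0.12 ± 0.19 in whole libraries (adjusted p = 0.998, edgeR), with 13.6, 13.8 and 10.1 CPM in the controls and 13.4, 11.9, 8.06 and 10.6 in ANGPT2, which overlapped. Neither of its 2 highest merged classes, mural nuclei and committed precursors, passed the filter. In the 5 classes that did, changes ran from -0.37 in microglia to 0.15 in oligodendrocytes.

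**Figure D5:**
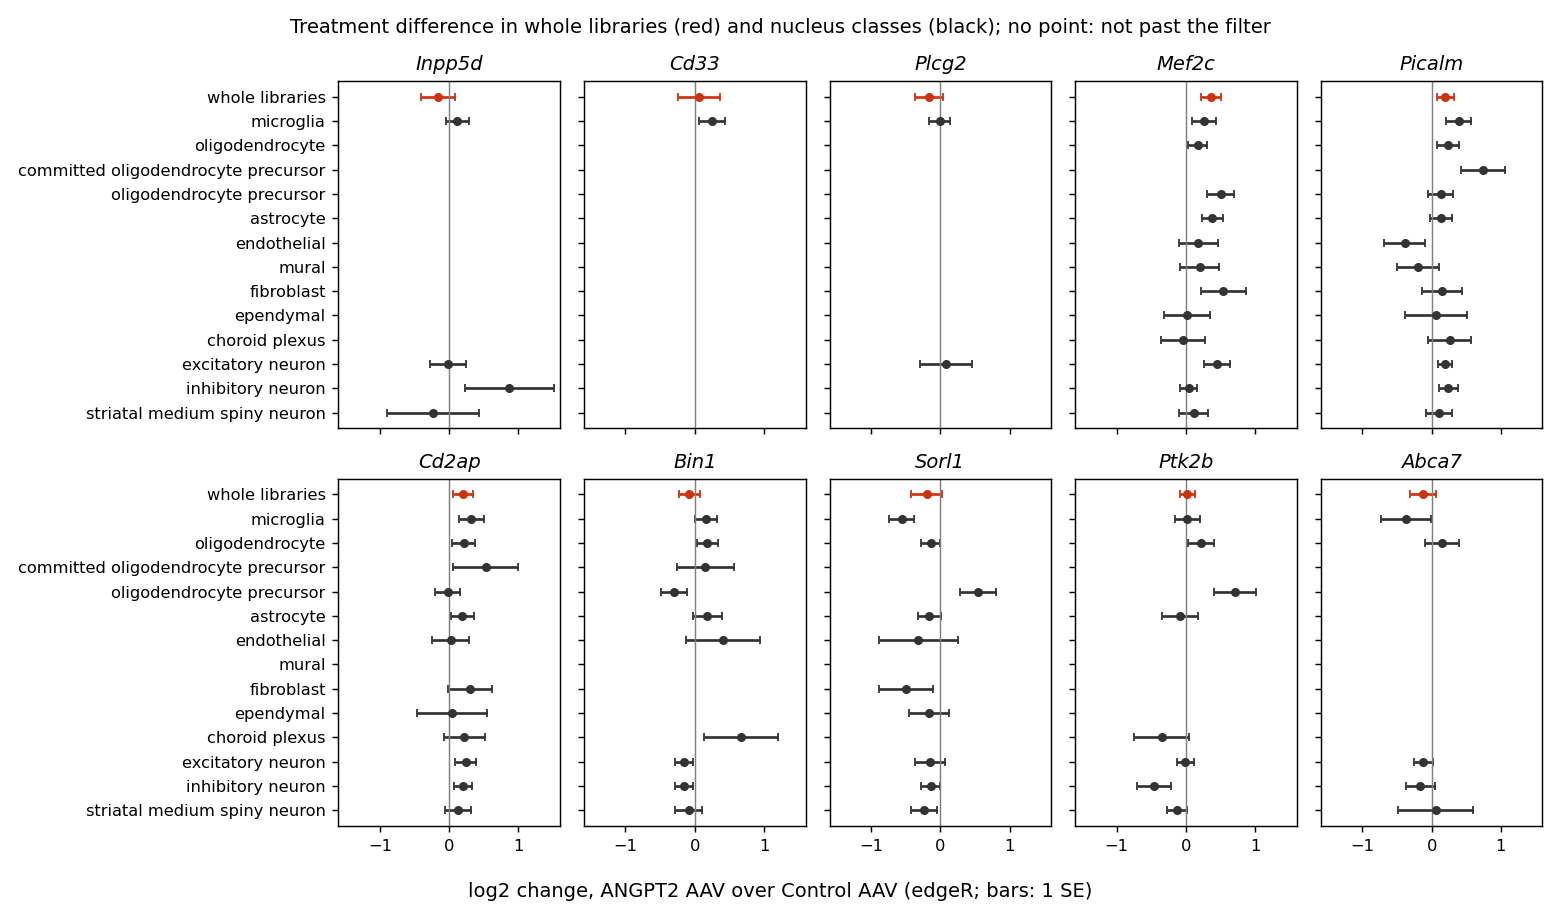
Log2 change of each gene, ANGPT2 AAV over Control AAV, in whole libraries (red) and in classes that passed the filter (black), with bars of 1 SE. Mef2c, Picalm and Cd2ap lie right of 0 in most classes and Sorl1 left of 0 in 9 of 10. The classes share the same libraries, so these directions are not independent. Sorl1 turned sign in excitatory neurons and ependymal nuclei without the control female of batch 1. No value was called after adjustment.

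Both groups held males and females, so the difference of the treatment effect between sexes was tested. Of 25 tests of members, edgeR called 0, and 2 had an unadjusted p under 0.05, both for Sorl1. The female minus male difference in log2 change was -0.99 ± 0.26 in whole libraries (adjusted p = 1.0) and -1.0 ± 0.25 in excitatory neurons (adjusted p = 0.566). With the replicate block the adjusted p values were 0.579 and 0.257. In excitatory neurons male means were 234 CPM in 2 controls and 250 in 2 ANGPT2 libraries, and females had 384 in 1 control and 239.9 in 2 ANGPT2 libraries. The estimate for females rests on the single control female, so sex and that library cannot be told apart.

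Related genes were examined from 5 lists, and 0 genes of any list were called by edgeR in whole libraries or in any class. In microglia, 32 of 42 other Alzheimer risk genes were tested, 17 higher and 15 lower, with a median log2 change of 0.01 against 0.0 for all genes. Their smallest p values belonged to Usp6nl, which encodes a Rab GTPase-activating protein (0.54 ± 0.20), and to the adhesion gene Icam1 (-0.52 ± 0.26). For endocytosis and endosomal sorting, 35 of 37 were tested (21 higher, 14 lower, median 0.03), led by Dnm3 (-0.47 ± 0.20) and Gga3 (-0.41 ± 0.20). Myeloid immunoreceptor signalling had 27 of 28 tested (15 higher, 12 lower, median 0.04), with Lat2 at -0.64 ± 0.25 and the phosphatase Ptpn6 at -0.52 ± 0.23. Partners of Pyk2, integrins and MEF2 had 20 of 23 tested (10 higher, 10 lower, median -0.03), and the Pyk2 paralog Ptk2 had the smallest p of all lists (-0.62 ± 0.19) ahead of Mef2a (0.32 ± 0.17). Paralogs of the members had 16 of 21 tested (8 higher, 8 lower, median -0.04), with Siglech at 0.39 ± 0.19 after Ptk2. Every adjusted p of these genes was 0.999.

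In excitatory neurons the same lists gave 38 of 42 risk genes tested (16 higher, 22 lower, median -0.04 against -0.02 for all genes). Usp6nl again had the smallest p (0.49 ± 0.17), and Blnk, an adaptor of B cells and myeloid cells, followed (-1.73 ± 0.65). Of 37 endocytosis genes 15 were higher and 22 lower (median -0.03), with the Cd2ap paralog Sh3kbp1 at 0.41 ± 0.15 and Gga2 at -0.33 ± 0.16. In the myeloid list 23 of 28 were tested (8 higher, 15 lower, median -0.20), led by Blnk and the microglial receptor gene Csf1r (-0.59 ± 0.25), genes of which neurons hold few UMIs. The Pyk2 and MEF2 list had 12 higher and 11 lower (median 0.04), with Pxn at -0.45 ± 0.20 and Hdac9 at 0.42 ± 0.19. Paralogs had 7 higher and 11 lower (median -0.01), and after Sh3kbp1 came Sorcs2, a relative of Sorl1 (-0.43 ± 0.32). All adjusted p values here were 0.90. Whole libraries had median changes from -0.16 (myeloid list) to 0.01 (paralogs) against -0.02 for all genes.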

How the data were processed

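Nuclei of 7 libraries were profiled by single-nucleus RNA sequencing. The authors deposited 1 filtered matrix per library of raw UMI counts per gene and barcode. Cell Ranger 6.1.2 and the mm10 build are named in the submitters' processing notes, and other steps are not given in the sources used here. The members and gene lists were chosen with earlier results of these data known.

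Barcodes with under 300 genes or at least 5% mitochondrial UMIs were removed, and doublets were called per library by comparison with simulated pairs (5.04% to 7.70% of barcodes). Nuclei were clustered with scanpy 1.11.5 and leidenalg 0.10.2 (Python 3.11.15) on 2500 variable genes without the members, 40 components, 15 neighbours and resolution 1. Clusters were named from fixed markers of 17 types. The details of the naming score, including a fold pseudocount of 50, were set after the clusters were seen and before the treatment groups were compared, so names are rebuilt and are not the authors'.

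Counts were summed per library and class, leaving out a library with under 10 nuclei of the class (the ANGPT2 male of batch 2 from choroid plexus and committed precursors, and the control male of batch 1 from medium spiny neurons). Sums were tested with edgeR 4.0.16 in R 4.3.3 (quasi-likelihood, TMM scaling, filterByExpr, treatment as the only term), with Benjamini-Hochberg adjustment over all genes of the class and a threshold of 0.05. On simulated data with 200 genes changed 2-fold, 75 were recovered in whole libraries (3 false calls), 109 in microglia (5), 108 in excitatory neurons (13) and 111 in oligodendrocytes (10). Alternatives were DESeq2 1.42.0, RLE scaling, no filter, a replicate block, a sex term, kept doublets, other clusterings and leaving out each library. Fits in single neuron classes, with and without the control female of batch 1, and in single microglial states were added after seeing the data.

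The labels give each sample a batch, which pairs samples across groups. In whole libraries, deviations from the group means correlated at 0.26 on average within a batch and at -0.25 between batches. The averages were 0.06 and -0.06 in microglia, 0.15 and -0.15 in excitatory neurons and 0.20 and -0.20 in endothelial nuclei. Changes of each member are named in whole libraries and in its 2 highest classes, with other classes given by counts, and list genes are named as the 2 with the smallest p per list. Promoter sequences are from RefSeq.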

Additional observations from a re-analysis of the deposited data

Results flagged for a closer look

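In the 28 groups of 4 ANGPT2 libraries that were examined, 2 held a library far from the other 3, and chance flags about 1 in 20 groups. Cd2ap in microglia was 209 CPM in the ANGPT2 female of batch 1, against 322 to 342 in the others. Mef2c in whole libraries was 772 CPM in the ANGPT2 female of batch 2, against 643 to 664 in the others, and without that library the log2 change was 0.26.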

How the results depend on the processing

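No member was called under any alternative, in whole libraries or in classes, and the smallest adjusted p was 0.698 and 0.269. Of 482 alternatives of 30 treatment differences, 455 kept the direction and 27 reversed it, and 20 of the 30 differences never reversed. With TMM-scaled levels, 5 member and class pairs did not overlap between groups instead of 3, against 5.94% of all pairs, and the added pairs were Mef2c in astrocytes and Picalm in excitatory neurons. Plain scaling moved the median of all genes in whole libraries to -0.08, against -0.02 with TMM.

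Without the control female of batch 1, the log2 change of Sorl1 became 0.18 in whole libraries, 0.12 in ependymal nuclei and 0.20 in excitatory neurons, and over all single libraries left out it ranged from -0.37 to 0.18, -0.40 to 0.12 and -0.32 to 0.20. That of Inpp5d became 0.12 (range -0.39 to 0.12) and of Abca7 0.02 (range -0.28 to 0.02) in whole libraries, of Plcg2 in microglia 0.02 and of Cd2ap in endothelial nuclei -0.08. Sorl1 in dentate granule neurons alone was 0.08. In single neuron classes, leaving out that female took Sorl1 in other excitatory neurons from -0.20 to 0.21, and Ptk2b from -0.06 to 0.03 there and from -0.05 to 0.39 in thalamic neurons. Plcg2 in microglia was 0.01 with DESeq2, and ranged from -0.05 to 0.06 when single libraries were left out (0.06 and 0.03 without the ANGPT2 female of batch 1 or male of batch 2). Cd33 in whole libraries was -0.13 with the replicate block and -0.20 with the block and sex, and ranged from -0.20 to 0.24 with single libraries left out (-0.02 without the batch 1 control male, -0.01 and -0.20 without either ANGPT2 library of batch 2, male and female). Cd2ap in endothelial nuclei ranged from -0.08 to 0.14 (-0.02 and -0.03 without the ANGPT2 male of batch 1 or female of batch 2), and Ptk2b in whole libraries from -0.03 to 0.12 (-0.03, -0.02 and -0.01 without the control male of batch 1, of batch 2 or the ANGPT2 male of batch 2). Ptk2b in microglia was -0.01 with the replicate block, -0.03 with sex, -0.07 with both and -0.13 in homeostatic-like nuclei, and ranged from -0.15 to 0.24 (-0.15 and -0.06 without the control male of batch 1 or ANGPT2 female of batch 2). The cause of these reversals was not tested. The block changed no call of a member. Over all genes it called 5 in committed precursors and 1 in choroid plexus, where 0 were called without it.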
